A study of Mus musculus with 20 samples.

Results

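Stimulated regulatory T cells (Tregs, the CD4 T cells that restrain immune responses) lacking Rheb1 and Rheb2 were compared with stimulated wild-type Tregs. The comparison rests on 6 of the 20 arrays of the series, chosen by their titles: 3 of stimulated Rheb1/2 knockout cells (Rheb KO) and 3 of stimulated wild-type cells (WT). All 19505 genes with a named probe set were tested. All cells came from the C57BL/6 background, were enriched with CD4 MicroBeads and were sorted as CD4+CD25+ cells. The labels name neither the stimulus nor its duration, neither the driver of the deletion nor the deleted exons, and do not tell if replicate arrays stand for different mice. The p-values below therefore measure only the spread between these samples, which may be technical. The treatment field follows genotype in this experiment: it calls the 3 stimulated WT arrays unstimulated and the 3 unstimulated Rheb KO arrays stimulated, against their titles. Groups follow the titles, and every comparison of stimulated with unstimulated cells rests on them. Set beside this comparison were 3 unstimulated Rheb KO and 3 unstimulated WT arrays of the same experiment, and 2 stimulated RagA/B knockout (Rag KO) and 2 stimulated WT arrays of a second experiment, in which stimulation lasted 8 h.

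Rheb is a small GTPase that, when loaded with GTP on the lysosome, switches on mTORC1, a kinase complex that drives protein, lipid and nucleotide synthesis and entry into the cell cycle. Growth factor signals act on Rheb through the TSC complex, while amino acids bring mTORC1 to Rheb through the Rag GTPases. In Tregs, mTORC1 activity is known to be raised by T cell receptor and IL-2 signals and to support lipid metabolism, proliferation and suppressive function.

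Signals are log2 values, on which a difference of 1 is a 2-fold difference. The 6 arrays had medians of 7.68 to 7.77 and 99th percentiles of 12.01 to 12.06, and between 2194 and 2877 genes exceeded the 95th percentile of an array's own negative controls. Arrays correlated at 0.9881 to 0.9932 within a group and at 0.9875 to 0.9905 between Rheb KO and WT. The sorted cells carried Treg transcripts: of 18 measured core Treg genes, 0 lay below the negative-control median in all 6 arrays, and the list averaged 10.97 to 11.03 in KO and likewise 10.97 to 11.03 in WT. Il2ra, which encodes the CD25 used for the sort, had 7.702 to 7.96 in KO and 7.81 to 7.98 in WT, where the negative-control medians were 7.02 to 7.16 and 6.93 to 7.05. Foxp3, the master transcription factor of Tregs, was not analysed here because no probe set carries its name.

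A gene was called when its limma p, adjusted by the Benjamini-Hochberg method over all 19505 genes, was below 0.05. In stimulated Rheb KO Tregs 106 genes (0.543%) were called, 40 higher (0.205%) and 66 lower (0.338%) than in stimulated WT Tregs. In all 106 the 3 KO arrays did not overlap the 3 WT arrays, a separation that 15.6% of all genes showed. Called changes had a median size of 0.75 log2, and 18 reached 1 log2, 7 of them higher and 11 lower. For comparison, the middle 90% of all genes lay between -0.30 and 0.26. Omitting 1 array lowered the count of calls to between 25 and 44, and 17 genes were called whichever array was omitted: Ermn, Il3, Dscam, Il18r1, Penk, Casp1 and Sowahc, which were higher, and Fam110c, Xdh, Ccl20, Castor2, Creb3l2, Cdk1, Tiam1, Slc28a2b, Pear1 and Tcn2, which were lower. The count was 214 with a trended and robust variance prior, 59 with only the groups compared and 13 with all 20 arrays in 1 fit. Of 46 called genes named by rule, 9 were called in that last fit: Castor2, Fam110c, Xdh, Ccl20, Il3, Ermn, Dscam, Jag1 and Xcl1. In 12 called genes the dimmer group lay below the negative-control median in all 3 of its arrays, so that their changes are measured against a group not above background: Cxcl9, Dscam, Edil3, Ermn, Gpr55, Il3 and Sowahc, which were higher, and Cenpe, Exo1, Fam110c, Nek2 and Npas4, which were lower.

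**Figure D1:**
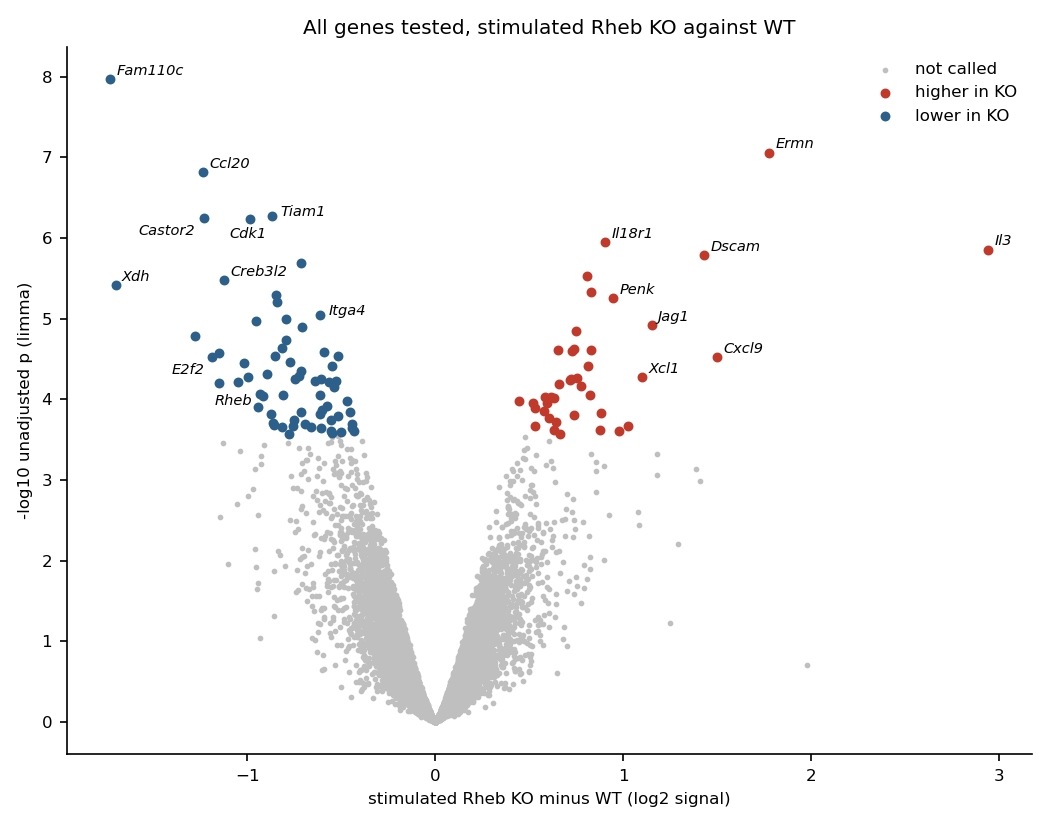
Each point is 1 of the 19505 genes, plotted by its change (stimulated Rheb KO minus WT, log2 signal) on the horizontal axis and by -log10 of its unadjusted limma p on the vertical axis; 40 genes called higher are red, 66 called lower are blue and the rest grey. Il3 stands farthest to the right at 2.94, and Fam110c and Xdh farthest to the left among called genes at -1.73 and -1.70.

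The targeted transcript was reduced but still measured. Rheb had signals of 9.37, 9.47 and 9.33 in KO, against 10.52, 10.18 and 10.27 in WT, and every KO array was below every WT array. The change was -0.93 ± 0.17 (SE, n = 3 each, limma adjusted p = 0.0278). That call ended when any 1 of the 6 arrays was omitted, with changes of -1.002 to -0.83. Rhebl1, which encodes Rheb2, was dim, at 4.99, 5.28 and 5.27 in KO and 6.05, 6.10 and 5.67 in WT, all below the median of the negative controls (limma change -0.76 ± 0.19, adjusted p = 0.119). Where the array's probes lie relative to the deleted part of either gene was not examined.

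Genes of cholesterol synthesis lay lower in stimulated Rheb KO. Of 16 measured genes of the pathway from HMG-CoA to cholesterol, all 16 had a change below 0, with a median of -0.49 against -0.01 over all genes, and in 13 the KO and WT arrays did not overlap (8.8% of all genes separated in that direction). Of these genes, 3 passed the test and fell (0.338% of all genes were called lower). The mean signal of the 16 genes was 8.69 to 8.78 across the KO arrays and 9.26 to 9.34 across the WT arrays. The same list had a median of -0.29 in unstimulated Rheb KO and of -0.28 in stimulated Rag KO.

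The promoters of Nsdhl, a called sterol gene, and of Hmgcs1, which opens the pathway, are shown as examples. Each covers 300 bases around the gene's start and comes from RefSeq, build GRCm38.p6. Capitals mark CCAAT on either strand, the element bound by NF-Y, and, in Hmgcs1 alone of the 13 sterol genes with a promoter in the table, TCACNCCAC, the element read by SREBP transcription factors.
Nsdhl (chrX:72918271-72918570, plus strand): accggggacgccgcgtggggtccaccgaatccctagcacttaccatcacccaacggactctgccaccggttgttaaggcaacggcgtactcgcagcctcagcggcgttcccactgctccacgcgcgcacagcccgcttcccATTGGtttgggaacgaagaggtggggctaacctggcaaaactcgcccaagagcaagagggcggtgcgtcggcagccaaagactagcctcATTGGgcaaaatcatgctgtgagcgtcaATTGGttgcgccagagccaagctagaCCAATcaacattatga
Hmgcs1 (chr13:119690101-119690400, plus strand): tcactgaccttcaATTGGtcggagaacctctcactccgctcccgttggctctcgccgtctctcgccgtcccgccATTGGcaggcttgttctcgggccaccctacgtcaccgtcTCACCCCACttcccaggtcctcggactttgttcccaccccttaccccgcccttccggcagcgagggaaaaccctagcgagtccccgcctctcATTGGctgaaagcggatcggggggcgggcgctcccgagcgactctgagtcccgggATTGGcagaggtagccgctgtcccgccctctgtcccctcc

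CCAAT on either strand was found in the promoters of 13 of 13 sterol genes, and in 41.1% of all genes with a promoter in the table. TCACNCCAC was found in 1 of 13, against 1.44% of all genes, and lay at positions -137 to -129 relative to the start of Hmgcs1. Fdps and Sqle have no entry in the promoter table used and were not searched. A match is a description of the letters, and its absence from this window says nothing about the factor.

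By step of the pathway, Nsdhl, which removes carbon at C-4 of the sterol ring, had signals of 9.42, 9.64 and 9.42 in KO and 10.15, 10.24 and 10.47 in WT. The groups were well apart, and its change was -0.79 ± 0.11 (limma adjusted p = 0.0104). The call ended without KO array 1 and with all 20 arrays in 1 fit. Without 1 array the change stayed between -0.86 and -0.70. Sqle, the squalene epoxidase, had 8.35, 7.92 and 8.30 in KO and 9.22, 9.01 and 8.96 in WT, a change of -0.87 ± 0.17 (adjusted p = 0.0376). Fdps, which makes farnesyl pyrophosphate, had 10.11, 10.06 and 9.89 in KO and 10.75, 10.60 and 10.55 in WT, a change of -0.61 ± 0.11 (adjusted p = 0.0278). The calls of Sqle and Fdps ended when any 1 array was omitted, with changes of -0.95 to -0.74 and of -0.66 to -0.55. The widest difference in the pathway was that of Hsd17b7, a 3-ketosteroid reductase, with 7.23, 7.78 and 7.65 in KO and 8.40, 8.79 and 8.58 in WT (-1.04 ± 0.22, adjusted p = 0.0673, not called). Hmgcs1 had 8.38, 8.27 and 8.64 in KO and 9.29, 9.43 and 9.07 in WT (-0.83 ± 0.27, adjusted p = 0.288, not called).

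**Figure D2:**
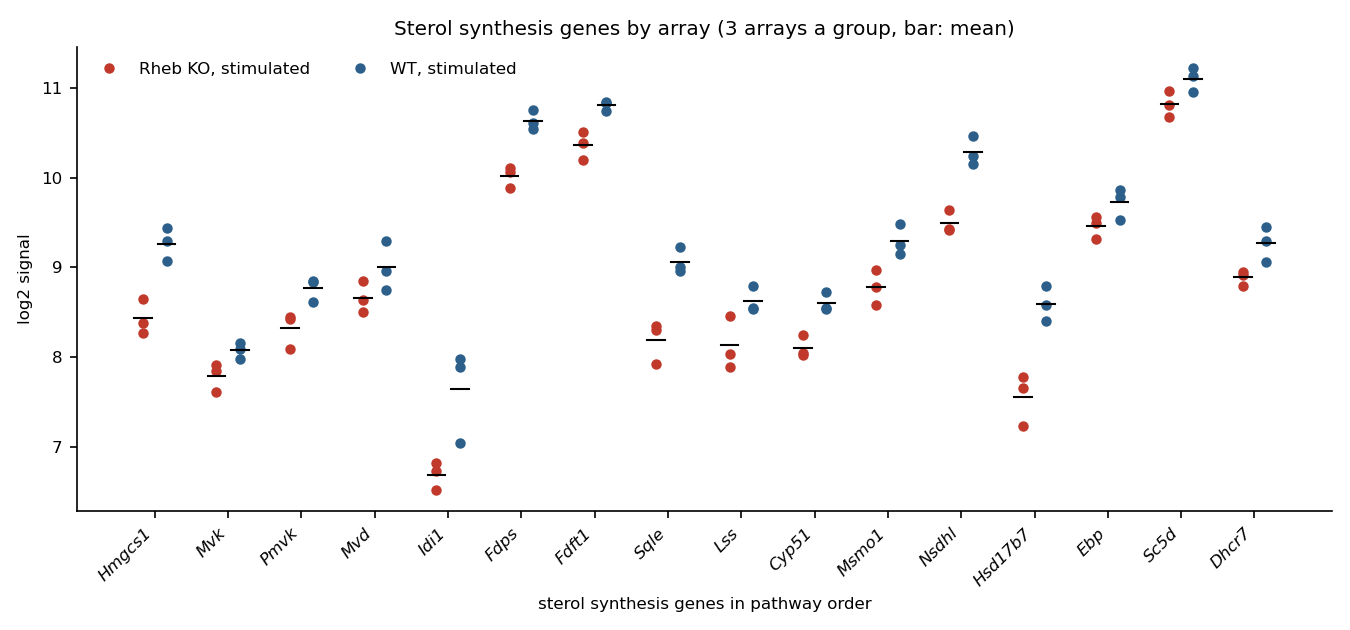
Log2 signal (vertical axis) of the 16 measured sterol synthesis genes, ordered along the pathway from Hmgcs1 to Dhcr7 on the horizontal axis; red points are the 3 stimulated Rheb KO arrays, blue points the 3 stimulated WT arrays and bars their means. All 16 KO means lie below the WT means, and the points of the groups do not overlap in 13 genes.

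Of 12 measured genes of sterol regulation, uptake and efflux none passed the test and the median change was 0.00. Srebf2, which encodes SREBP2, had 10.83, 10.79 and 10.52 in KO and 11.08, 11.14 and 10.95 in WT (-0.35 ± 0.11, adjusted p = 0.271). Stard4, a sterol transfer protein, had 8.14, 8.16 and 8.20 in KO and 8.94, 8.80 and 9.06 in WT (-0.77 ± 0.18, adjusted p = 0.0968). Abca1, the cholesterol exporter, had 6.51, 6.59 and 6.79 in KO and 5.67, 5.72 and 6.42 in WT, all below the negative-control median (0.69 ± 0.21, limma adjusted p = 0.238). Of 15 fatty acid synthesis genes, none was called, 13 lay below 0 and the median was -0.20. In 5 of them the KO arrays lay below the WT arrays without overlap (8.8% of all genes), and the list averaged 8.63 to 8.74 in KO and 8.82 to 8.94 in WT.

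Several cell cycle genes fell in stimulated Rheb KO. Of 39 measured genes of mitosis and the G2/M phase, 5 passed the test and fell, none rose, 37 lay below 0 and the median was -0.50. Among these 39, 8 lay below the negative-control median in all 6 arrays. Of 39 genes of DNA replication and G1/S, 3 passed and fell, none rose, 34 lay below 0 and the median was -0.28. Over all genes 0.338% were called lower and 52.74% lay below 0. The mean signal of the mitosis genes was 7.30 to 7.39 in KO arrays and 7.74 to 7.99 in WT arrays, and their median change was -0.33 in unstimulated Rheb KO and -0.15 in stimulated Rag KO. Of 15 CDK inhibitors and D-type cyclins none was called, and their median was 0.05.

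Promoters of 3 called cell cycle genes are shown because mitosis and G1/S genes are known for different elements; they were picked because they hold them. Mitosis genes are known for the CHR element, searched as TTTGAA and as TTCGAA, and for CCAAT. G1/S genes are known for E2F sites, searched as TTTCGCGC, as TTTGGCGC and as TTTCCCGC. Capitals mark the mitosis elements in Cdk1 and Ube2c, and the E2F element in E2f2, on either strand. In Ube2c a CCAAT overlaps one on the other strand. Each promoter was marked only for the elements of its own list. Unmarked, the Cdk1 promoter also holds TTTCGCGC and the E2f2 promoter also holds CCAAT, so the capitals do not show a clean split.
Cdk1 (chr10:69352863-69353162, minus strand): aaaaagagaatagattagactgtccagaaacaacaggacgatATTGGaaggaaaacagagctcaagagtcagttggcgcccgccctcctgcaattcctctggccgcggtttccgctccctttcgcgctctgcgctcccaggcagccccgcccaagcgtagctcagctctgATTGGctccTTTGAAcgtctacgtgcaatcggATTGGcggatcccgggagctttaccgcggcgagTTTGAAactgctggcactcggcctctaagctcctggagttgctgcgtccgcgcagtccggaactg
Ube2c (chr2:164769679-164769978, plus strand): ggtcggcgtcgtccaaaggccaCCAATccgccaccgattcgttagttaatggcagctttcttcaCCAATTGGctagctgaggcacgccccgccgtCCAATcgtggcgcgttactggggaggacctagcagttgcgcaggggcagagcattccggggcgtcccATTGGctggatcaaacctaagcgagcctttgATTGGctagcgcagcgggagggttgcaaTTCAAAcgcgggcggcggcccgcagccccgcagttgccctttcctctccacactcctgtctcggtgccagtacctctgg
E2f2 (chr4:136172024-136172323, plus strand): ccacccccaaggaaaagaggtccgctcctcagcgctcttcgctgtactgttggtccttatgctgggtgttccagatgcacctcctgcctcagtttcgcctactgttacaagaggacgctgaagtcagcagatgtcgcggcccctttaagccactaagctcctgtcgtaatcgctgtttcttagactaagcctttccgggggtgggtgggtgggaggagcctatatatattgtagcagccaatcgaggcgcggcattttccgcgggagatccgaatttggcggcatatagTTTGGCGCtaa

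TTTGAA was found in the promoters of 24 of 31 mitosis genes with a promoter in the table, and in 20.2% of all genes. TTCGAA was found in 3 of 31, against 1.8% of all genes, and CCAAT in 22 of 31, against 41.1%. Of 32 G1/S genes, TTTGGCGC was found in 7, TTTCGCGC in 4 and TTTCCCGC in 5, against 0.585%, 0.374% and 1.24% of all genes. Among other called genes, the promoter of Plk1 held TTTGAA and CCAAT, while that of Cenpe held CCAAT alone. A second E2f2 promoter in the table (chr4:136180532-136180831) held none of the E2F elements, the only ones searched in G1/S genes. RefSeq, in its GRCm38.p6 build, is the source of these sequences too.

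Cdk1, the kinase that starts mitosis, had 7.81, 7.74 and 7.81 in KO and 8.94, 8.70 and 8.67 in WT. The KO arrays lay close together and below every WT array, and the change of -0.98 ± 0.11 (limma adjusted p = 0.00191) remained called without any 1 array, but not with all 20 arrays in 1 fit (adjusted p = 0.996). Ube2c, the ubiquitin-conjugating enzyme of the anaphase-promoting complex, had 7.66, 7.72 and 8.14 in KO and 9.08, 8.79 and 8.79 in WT (-1.05 ± 0.18, adjusted p = 0.0219). Plk1, a mitotic kinase, had 7.96, 7.89 and 7.72 in KO and 8.71, 9.02 and 8.67 in WT (-0.94 ± 0.18, adjusted p = 0.0342). Aurkb, the kinase of the chromosomal passenger complex, changed by -0.86 ± 0.17 (adjusted p = 0.0442), and Cenpe, a kinetochore motor, by -0.85 ± 0.14 (adjusted p = 0.0163), with KO signals of 6.12 to 6.17 below the negative-control median. Without 1 array the calls of Plk1 and Aurkb ended for any array (-1.01 to -0.83 and -0.97 to -0.78). That of Ube2c held only without KO array 3 and that of Cenpe only without WT array 3 (ranges -1.20 to -0.95 and -0.98 to -0.73). Mki67, the proliferation marker, had 9.42, 9.65 and 9.38 in KO and 10.26, 10.09 and 10.23 in WT, groups that did not overlap, with a change of -0.71 ± 0.19 that was not called (adjusted p = 0.161).

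E2f2, an activator of S phase genes, had 7.49, 7.5002 and 7.29 in KO and 8.21, 8.77 and 8.85 in WT (-1.18 ± 0.19, limma adjusted p = 0.0163). Its call held only without WT array 1 (range -1.38 to -1.06). Ccne2, a cyclin of the G1/S transition, changed by -0.90 ± 0.15 (adjusted p = 0.0219), and its call held only without KO array 3 (range -1.01 to -0.75). Exo1, a DNA repair exonuclease, had 5.44, 5.13 and 5.80 in KO and 6.19, 6.40 and 6.23 in WT, all dim (-0.81 ± 0.16, adjusted p = 0.0451); its call held only without KO array 3 (-0.99 to -0.65). Nek2, a kinase of centrosome separation that is in neither list, had 5.98, 6.06 and 5.55 in KO and 7.1, 7.14 and 6.80 in WT (-1.15 ± 0.20, adjusted p = 0.0222), a call that ended without any 1 array (-1.25 to -0.99); its KO arrays lay below the negative-control median. Histone genes, chosen after their values were seen, included 5 that passed and fell among 62 measured: H2ax, H2bc12, H2bc22, H3c11 and H3c8 (0.338% of all genes were called lower). Of the 62, 57 lay below 0 and the median was -0.25.

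No gene of the other growth lists passed the test. No gene was called among 24 glycolysis and HIF1 genes (median -0.13), 37 respiratory chain genes (-0.09), 24 nucleotide and one-carbon genes (-0.14), 37 ribosome biogenesis genes (-0.12), 28 translation factors and tRNA synthetases (-0.09), 22 ATF4 and ER stress genes (-0.11), 16 amino acid transporters (0.03), 23 lysosome and autophagy genes (-0.10), 11 iron genes (-0.04), 9 genes of the Myc network (-0.10) or 15 Bcl2 family genes (-0.03). In 14 of the 37 respiratory chain genes, 9 of the 24 glycolysis and HIF1 genes and 11 of the 37 ribosome biogenesis genes the KO arrays lay below the WT arrays without overlap (8.8% of all genes). The same held for 6 of the 24 nucleotide and one-carbon genes and 7 of the 22 ATF4 and ER stress genes. It also held for 7 of the 28 translation factors and tRNA synthetases and 3 of the 23 lysosome and autophagy genes. Respiratory chain genes averaged 10.73 to 10.77 in KO and 10.82 to 10.92 in WT, glycolysis and HIF1 genes 9.22 to 9.31 in KO and 9.33 to 9.42 in WT, and ribosome biogenesis genes 9.81 to 9.92 in KO and 9.96 to 10.04 in WT. Myc itself had 11.80, 11.83 and 11.58 in KO and 11.56, 11.57 and 11.42 in WT (0.22 ± 0.10, adjusted p = 0.512). Hk2, the hexokinase of activated cells, had 7.28, 7.0021 and 6.55 in KO and 6.73, 7.29 and 6.85 in WT, and the groups overlapped. Slc7a5, the large neutral amino acid transporter, had 9.47, 9.54 and 9.53 in KO and 9.69, 9.23 and 9.48 in WT, and these overlapped too.

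Among the genes that feed into or make up mTORC1, Castor2 fell. Castor2, a relative of the arginine sensor Castor1 that binds the GATOR2 complex upstream of the Rag GTPases, had 8.67, 8.61 and 8.57 in KO and 9.83, 10.07 and 9.64 in WT. The KO arrays were nearly equal and all below the lowest WT array, and the change of -1.23 ± 0.14 (limma adjusted p = 0.00191) remained called without any 1 array. It was the only called gene among 28 genes of amino acid sensing, which had a median of -0.09 (0.338% of all genes were called lower). Castor1 changed by 0.03 ± 0.14 (adjusted p = 0.985). Sesn1, a leucine sensor of the same branch, had 9.53, 9.28 and 9.08 in KO and 9.78, 9.81 and 9.92 in WT (-0.54 ± 0.13, adjusted p = 0.0945). None of 15 components of mTORC1 and mTORC2 (median -0.04) and none of 17 genes of PI3K, Akt and FoxO signalling (median -0.03) was called.

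**Figure D3:**
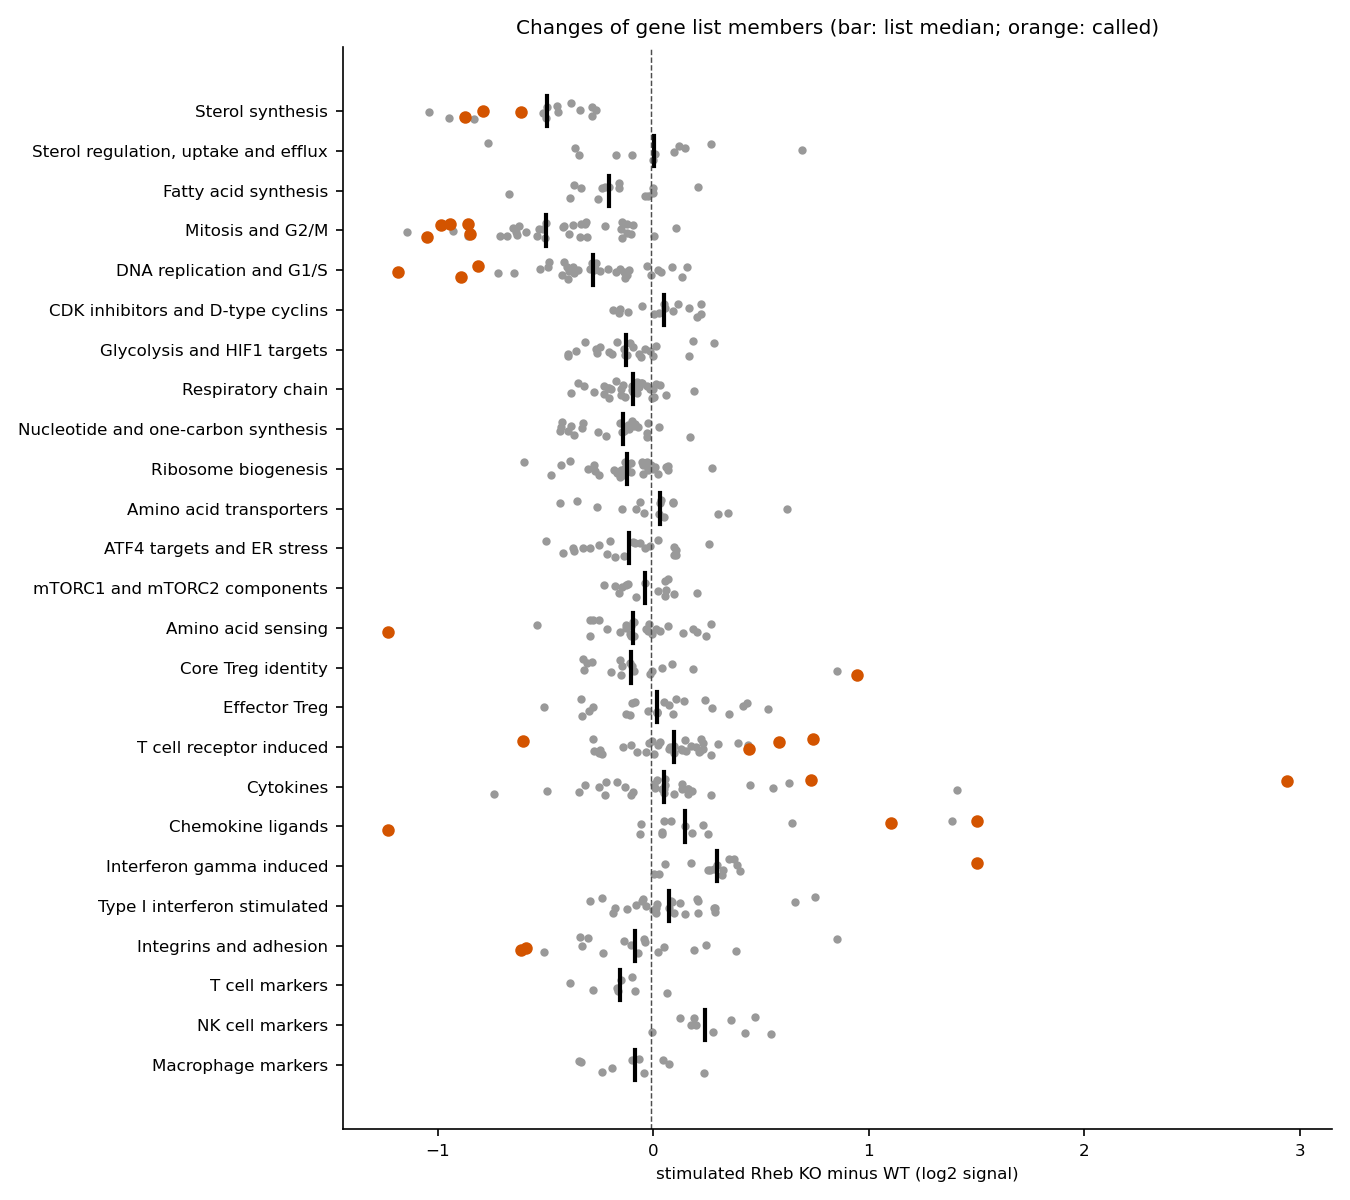
Change in stimulated Rheb KO minus WT (log2 signal, horizontal axis) of the members of 25 gene lists (vertical axis); each point is a gene, orange points are called, black bars are list medians and the dashed line is the median of all genes. Sterol synthesis and mitosis have the lowest medians, -0.49 and -0.50.

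Among the largest falls outside these lists, Fam110c, which encodes a centrosome-associated protein, had 6.64, 6.72 and 6.91 in KO and 8.52, 8.70 and 8.25 in WT (-1.73 ± 0.14, limma adjusted p = 0.000208); the KO arrays lay below the negative-control median. Xdh, the xanthine dehydrogenase that ends purine breakdown, had 7.76, 7.14 and 7.71 in KO and 9.22, 9.42 and 9.08 in WT (-1.70 ± 0.22, adjusted p = 0.0057). Creb3l2, a transcription factor held in the endoplasmic reticulum membrane, had 8.98, 9.19 and 8.76 in KO and 10.18, 10.14 and 9.97 in WT (-1.12 ± 0.15, adjusted p = 0.00539). In these 3 genes every KO array was below every WT array, and they stayed called without any 1 array; with all 20 arrays in 1 fit the call of Creb3l2 ended (adjusted p = 0.243). Npas4, a transcription factor best known from neurons, had 6.66, 6.48 and 6.24 in KO and 7.36, 7.51 and 7.49 in WT (-0.996 ± 0.17, adjusted p = 0.0219), a call that ended without any 1 array (-1.097 to -0.88); the KO arrays lay below the negative-control median. Pdzk1ip1, a small membrane protein that binds PDZ domains, had 7.104, 7.32 and 7.29 in KO and 8.78, 8.54 and 8.22 in WT (-1.28 ± 0.19, adjusted p = 0.0135), a call held only without KO array 3 or WT array 3 (-1.42 to -1.14).

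**Figure D4:**
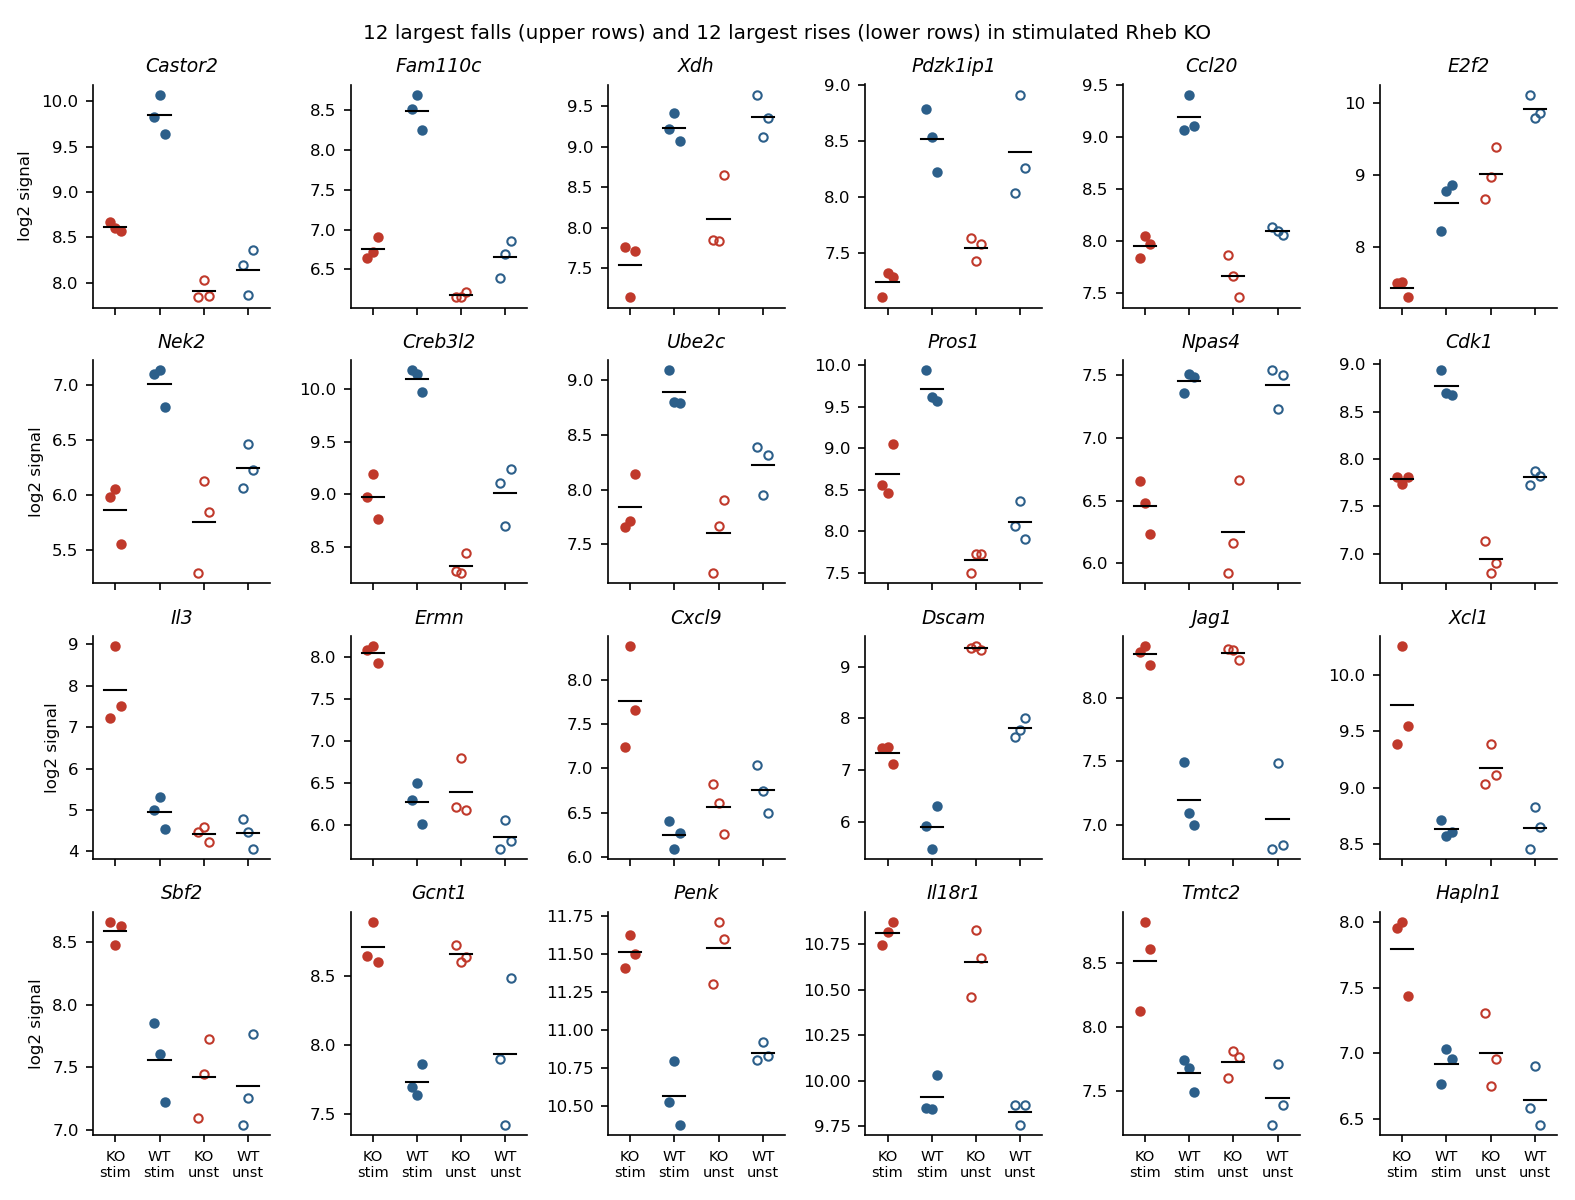
Log2 signal (vertical axes, each panel on its own scale) of the 12 called genes with the largest fall and the 12 with the largest rise, 1 panel per gene, in the 3 arrays of each group; filled points are stimulated Rheb KO (red) and WT (blue), open points are the unstimulated Rheb KO (red) and WT (blue), and bars are means. In every panel the filled red points are apart from the filled blue ones, while the open points are apart in only some panels.

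Secreted ligands and receptors were among the called genes. Ccl20, a chemokine, had 7.84, 8.05 and 7.98 in KO and 9.06, 9.40 and 9.10 in WT (-1.23 ± 0.12, limma adjusted p = 0.00098, called without any 1 array). Ccr6, its receptor, had 10.09, 10.31 and 10.24 in KO and 9.46, 9.31 and 9.63 in WT (0.75 ± 0.11, adjusted p = 0.012), and its call ended without KO array 2, WT array 1 or WT array 2 (0.67 to 0.83). Pros1, protein S, a ligand of the receptors Tyro3 and Mertk, had 8.56, 8.46 and 9.05 in KO and 9.94, 9.61 and 9.57 in WT (-1.02 ± 0.17, adjusted p = 0.0182), a call held only without KO array 3 or WT array 3 (-1.20 to -0.90). Axl, a receptor tyrosine kinase of the same family whose main ligand is Gas6, had 9.42, 9.32 and 9.29 in KO and 8.5023, 8.93 and 8.80 in WT (0.60 ± 0.11, adjusted p = 0.0313); Axl was picked after its values were seen and is not among the 17 genes called whichever array was omitted.

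The largest rise was that of a cytokine gene. Il3, which encodes interleukin 3, had 7.22, 8.96 and 7.52 in KO and 5.01, 5.31 and 4.55 in WT. The WT arrays lay below the negative-control median, and KO array 2 stood above the other KO arrays. The change was 2.94 ± 0.35 (limma adjusted p = 0.0034) and 2.41 without KO array 2, and it remained called without any 1 array. Csf2, which encodes GM-CSF, had 7.97, 8.23 and 7.87 in KO and 7.19, 7.38 and 7.31 in WT (0.73 ± 0.12, adjusted p = 0.0162), a call that held only without KO array 3 or WT array 2 (0.62 to 0.81). These were the called members among 33 cytokine genes, whose median was 0.05 (0.205% of all genes were called higher). Ifng had 8.48, 9.80 and 9.12 in KO and 8.46, 7.09 and 7.62 in WT (1.41 ± 0.34, adjusted p = 0.106, not called). Il10 had 7.89, 8.57 and 7.84 in KO and 9.01, 8.55 and 8.95 in WT, and the groups overlapped (-0.74 ± 0.21, adjusted p = 0.198). Il4 had 9.38, 9.12 and 8.98 in KO and 9.69, 9.53 and 9.74 in WT (-0.49, adjusted p = 0.288, not called). Il2 had 5.66, 5.84 and 5.83 in KO and 5.75, 5.82 and 5.75 in WT, all below the negative-control median.

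Of 15 chemokine ligand genes, 2 rose besides the fall of Ccl20 (0.205% of all genes were called higher and 0.338% lower). Cxcl9, an interferon-gamma-induced chemokine, had 7.24, 8.38 and 7.65 in KO and 6.40, 6.09 and 6.27 in WT, where it lay below the negative-control median (1.502 ± 0.24, limma adjusted p = 0.0163). Xcl1, a chemokine that acts on cross-presenting dendritic cells, had 9.39, 10.26 and 9.55 in KO and 8.71, 8.57 and 8.61 in WT (1.102 ± 0.19, limma adjusted p = 0.0219). Both changes were smallest without KO array 2, at 1.19 and 0.84, which kept the calls; the calls ended without KO array 3 or any WT array. KO array 2 was the highest array of the 6 for Il3, Cxcl9, Xcl1, Ifng, Ccl1 and Ccl3. In that array the 10 NK cell markers also averaged 6.61, against 6.45 and 6.34 in KO arrays 1 and 3 and 6.15 to 6.23 in WT. Of those 10 markers none was called, 6 lay below the negative-control median in all 6 arrays and the median change was 0.24; the part of other cells in these results was not tested.

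Interferon-gamma-induced genes lay higher in stimulated KO cells. All 15 measured genes of this list had a change above 0, with a median of 0.30, and in 9 the groups did not overlap (6.75% of all genes separated in that direction). Of these, 1 gene was called, Cxcl9, and Irf1, a transcription factor of the response, had 11.19, 11.08 and 11.07 in KO and 10.81, 10.64 and 10.77 in WT (0.38 ± 0.09, limma adjusted p = 0.0968). Among all genes 0.205% were called higher. The list averaged 10.46 to 10.55 in the KO arrays and 10.12 to 10.24 in the WT arrays. The same list had a median change of -0.11 in unstimulated Rheb KO and of 0.53 in stimulated Rag KO. Cd274, which encodes PD-L1, was picked after its values were seen and is likewise not among those 17 genes. It had 11.19, 11.29 and 11.17 in KO and 10.85, 10.47 and 10.74 in WT (0.53 ± 0.11, adjusted p = 0.0451). None of 27 type I interferon genes was called, and their median was 0.07.

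Few genes of T cell receptor activation and of the Treg programme were called. Of 37 T cell receptor induced genes, Nr4a2, Nr4a3 and Cd69 rose and Cd6 fell, and the median was 0.10. Over all genes 0.205% were called higher and 0.338% lower. In 14 of the 37 the KO arrays lay above the WT arrays without overlap, and in 5 below (6.75% and 8.8% of all genes). Nr4a2, an orphan nuclear receptor, had 11.34, 11.59 and 11.28 in KO and 10.79, 10.68 and 10.52 in WT (0.74 ± 0.12, limma adjusted p = 0.0162), with a call that held only without KO array 3 or WT array 1. Nr4a3 changed by 0.58 ± 0.11 (adjusted p = 0.0362), Cd69, an early activation marker, by 0.45 ± 0.08 (adjusted p = 0.0304) and Cd6, a T cell co-receptor, by -0.61 ± 0.10 (adjusted p = 0.0219). These 3 calls ended without any 1 array, with changes of 0.56 to 0.60, 0.42 to 0.47 and -0.67 to -0.49.

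Of 18 core Treg genes 1 was called, Penk, the enkephalin precursor, with 11.41, 11.63 and 11.50 in KO and 10.52, 10.80 and 10.37 in WT (0.95 ± 0.13, limma adjusted p = 0.00673, called without any 1 array, but not with all 20 arrays in 1 fit, adjusted p = 0.57). The core genes had a median of -0.10. In 8 of the 18 the KO arrays lay below the WT arrays without overlap, and in 3 above (8.8% and 6.75% of all genes). Of all genes 0.205% were called higher. Ctla4 had 11.99, 12.04 and 12.06 in KO and 12.14, 12.17 and 12.26 in WT (-0.15 ± 0.09, adjusted p = 0.695), and Ikzf2, which encodes Helios, had 11.12, 11.05 and 11.03 in KO and 10.98, 10.91 and 11.06 in WT (0.09 ± 0.10, adjusted p = 0.891). Of 24 effector Treg genes none was called, with 6 separated upwards and 4 downwards. Icos, a costimulatory receptor, had 12.11, 12.17 and 12.23 in KO and 12.11, 12.09 and 12.09 in WT (0.07 ± 0.09, adjusted p = 0.909), and Itgae, the CD103 integrin chain, had 8.30, 8.39 and 8.02 in KO and 7.46, 7.55 and 7.14 in WT (0.85 ± 0.19, adjusted p = 0.0813, not called). Neither the 10 genes of IL-2 receptor, STAT5 and SOCS (median -0.08) nor the 18 of cell dissociation (median -0.01) held a called gene.

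Receptors and adhesion molecules changed in both directions. Il18r1, the interleukin 18 receptor chain, had 10.75, 10.82 and 10.87 in KO and 9.85, 9.85 and 10.03 in WT (0.90 ± 0.11, limma adjusted p = 0.00315, called without any 1 array, but not with all 20 arrays in 1 fit, adjusted p = 0.613). Ccr4, a skin-homing chemokine receptor, changed by -0.76 ± 0.15 (adjusted p = 0.0451), Tnfrsf8, which encodes CD30, by -0.86 ± 0.17 (adjusted p = 0.0447) and Il6ra by -0.43 ± 0.09 (adjusted p = 0.0475). Itga4, the integrin alpha 4 chain, had 9.93, 9.74 and 9.88 in KO and 10.44, 10.47 and 10.47 in WT (-0.61 ± 0.09, adjusted p = 0.00987), and Itgb2, the beta 2 chain, changed by -0.59 ± 0.09 (adjusted p = 0.0162). The calls of Ccr4, Tnfrsf8 and Il6ra ended without any 1 array (-0.83 to -0.63, -0.97 to -0.71 and -0.48 to -0.40). That of Itga4 ended without KO array 2, and that of Itgb2 held only without WT array 2. Both ended with all 20 arrays in 1 fit.

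The remaining large rises include genes best known from other tissues. Ermn, an oligodendrocyte cytoskeletal protein, had 8.08, 8.12 and 7.93 in KO and 6.30, 6.49 and 6.01 in WT, where it lay below the negative-control median (1.78 ± 0.17, limma adjusted p = 0.000851). Dscam, a neural adhesion molecule, had 7.43, 7.45 and 7.11 in KO and 5.92, 5.48 and 6.30 in WT, also below it (1.43 ± 0.17, adjusted p = 0.00349). Both remained called without any 1 array. Jag1, a Notch ligand, had 8.37, 8.41 and 8.26 in KO and 7.49, 7.09 and 6.9982 in WT (1.15 ± 0.17, limma adjusted p = 0.0111). Its call held only without KO array 3 or WT array 1 (1.05 to 1.30). The other 22 Notch pathway genes were not called (0.205% of all genes were called higher). Sbf2 changed by 1.02 ± 0.20, Gcnt1, which branches O-linked glycans, by 0.98 ± 0.20, Tmtc2 by 0.88 ± 0.17 and Hapln1, a hyaluronan link protein, by 0.88 ± 0.18 (adjusted p = 0.0451, 0.0477, 0.0368 and 0.0475). The calls of Sbf2 and Gcnt1 ended without any 1 array (0.86 to 1.17 and 0.89 to 1.04), that of Tmtc2 held only without KO array 1 (0.73 to 1.084) and that of Hapln1, whose WT arrays had 6.77 to 7.03, about the negative-control medians, only without KO array 3 (0.78 to 1.06).

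The mean signals of the marker lists of other cells overlapped between the groups for dendritic, B, neutrophil, mast and erythroid markers, but not for NK cell markers (given above), macrophage markers or the CD8 genes. Of 10 macrophage, 9 B cell, 9 neutrophil, 10 mast cell and basophil and 4 erythroid markers none was called; the macrophage markers averaged 6.676 to 6.686 in KO and 6.69 to 6.89 in WT. Of 11 dendritic cell markers H2-Eb1, an MHC class II chain, was called, at 8.83, 8.89 and 9.04 in KO and 8.09, 8.48 and 7.87 in WT (0.78 ± 0.14, limma adjusted p = 0.0233); its call held only without WT array 2 (0.64 to 0.94), and the list had a median of 0.18. Among all genes 0.205% were called higher. The CD8 genes Cd8a and Cd8b1 averaged 7.94 to 8.20 in KO and 8.43 to 8.55 in WT. The 8 T cell markers averaged 11.42 to 11.53 in KO and 11.61 to 11.66 in WT, with no call and 6 of 8 separated downwards (8.8% of all genes). The part of these differences in the other results was not tested. In RNA from sorted cells in bulk, fewer cells of a type and less RNA per cell cannot be told apart.

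The stimulated effect was set beside the unstimulated one, whose changes use none of the same arrays. Both effects came from the same limma fit, with a shared estimate of spread per gene (for Rheb, an SE of 0.167 in each state). The calls of each state therefore also rest on the spread of the other state's arrays, and calls in both states are not independent. In unstimulated cells 99 genes were called (0.508%), and 28 genes were called in both states, 26.4% of the stimulated and 28.3% of the unstimulated calls; 11 were higher and 17 lower in both, and none was opposite. Of the 106 stimulated calls, 96 had the same sign in unstimulated cells, where 56.0% of all genes did. Macrophage markers averaged 7.81 to 7.90 in unstimulated KO and 7.38 to 7.43 in unstimulated WT. Dendritic cell markers averaged 7.79 to 7.92 and 7.48 to 7.64 there, and NK cell markers 6.82 to 7.05 and 6.46 to 6.78. The remaining marker lists of other cells overlapped between these groups. The part of other cells in the unstimulated calls was not tested. Dscam, Jag1, Tiam1, Cdk1, Xdh and Il18r1 were among the genes called in both states: Dscam had 9.35, 9.39 and 9.32 in unstimulated KO and 7.63, 7.78 and 8.01 in unstimulated WT, a change of 1.55 against 1.43 after stimulation. Tiam1, a Rac activator, changed by -0.94 without and -0.87 with stimulation.

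Some genes called after stimulation were not called before it. Il3 had 4.47, 4.60 and 4.22 in unstimulated KO and 4.79, 4.47 and 4.06 in unstimulated WT, a change of -0.01, but all 6 arrays lay below their negative-control medians (6.86 to 7.03), so a change there could not be measured. Fam110c changed by -0.48, Castor2 by -0.23, Ermn by 0.53 and Nsdhl by 0.09 in unstimulated cells, none of them called there, though the KO and WT arrays of Fam110c and Ermn did not overlap. For Fam110c too, all 6 unstimulated arrays lay below their negative-control medians. The difference between the stimulated and the unstimulated effect was called for 0 of 19505 genes by limma (0.0%), with 1207 (6.19%) at an unadjusted p below 0.05. It was largest among these genes for Il3, at 2.95 ± 0.50, with Fam110c at -1.25 ± 0.19 (limma adjusted p = 0.21 each). Both differences rest on unstimulated arrays below background. Ermn had 1.24 ± 0.24 and Castor2 -0.998 ± 0.19 (limma adjusted p = 0.243 each). With a trended and robust variance prior 7 genes were called, and 1 gene was called without the dimmest 40% of genes and 1 with all 20 arrays in the fit.

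**Figure D5:**
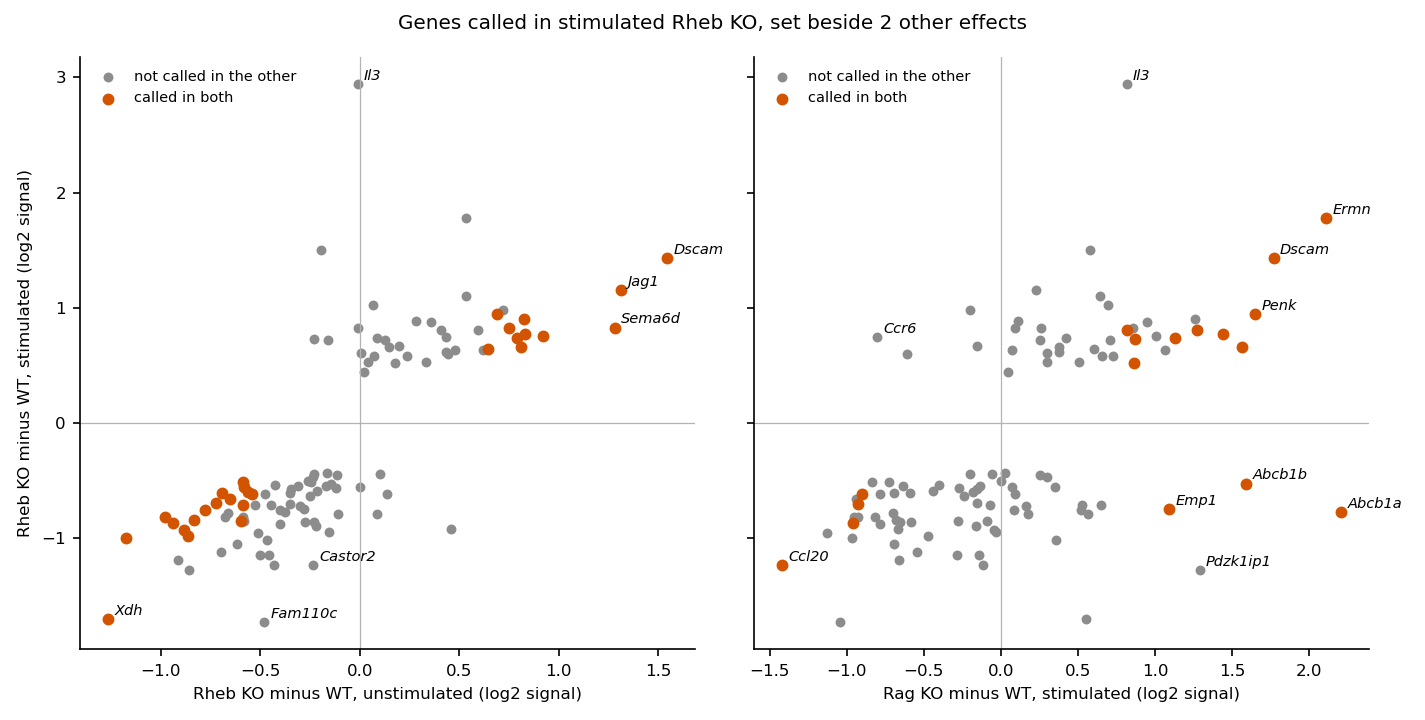
The 106 genes called in stimulated Rheb KO, with their stimulated Rheb KO minus WT change on the vertical axis and, on the horizontal axis, their change in unstimulated Rheb KO minus WT (left panel) or in stimulated Rag KO minus WT (right panel), all in log2 signal; orange points were called in both. On the left 28 genes were called in both, all of one sign; on the right 17 were, of which Abcb1a, Abcb1b and Emp1 had opposite signs.

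The stimulated Rheb effect was also set beside the stimulated Rag effect, from another experiment with its own WT arrays. The spread behind the Rag calls was estimated from the arrays of both experiments, so calls in both knockouts are not fully independent either. Rag KO called 227 genes (1.16%), and 17 genes were called in both, 16.04% of the Rheb and 7.49% of the Rag calls, 14 with the same sign. Of the 106 Rheb calls, 83 had the same sign in Rag KO, where 52.9% of all genes did. Ermn, Dscam, Penk, Casp1, Ndrg1, Nr4a2, Csf2 and H2-Eb1 were higher and Ccl20 and Tiam1 lower in both. Ermn changed by 1.78 in Rheb KO and 2.11 in Rag KO, and Ccl20 by -1.23 and -1.42.

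The difference between the Rheb and Rag effects was called for 37 genes (0.19%), 3 higher (0.0154%) and 34 lower (0.174%), and 33 of them were called in Rag KO. That count was 12 without WT array 2 of the Rag experiment, 15 without Rag KO array 1 and 130 without WT array 1 of the Rag experiment. Of the 37, 6 were called in stimulated Rheb KO: Abcb1a, Abcb1b, Ccr6, Emp1, Pdzk1ip1 and Tube1. Abcb1a, a drug efflux pump, had 9.97, 10.01 and 10.22 in Rheb KO and 10.84, 10.92 and 10.76 in its WT (-0.77 ± 0.13, limma adjusted p = 0.0181), while Rag KO had 12.59 and 12.06 and its WT 10.78 and 9.46 (2.21, adjusted p = 0.000657). The Rheb call of Abcb1a held only without KO array 3 or WT array 3 of the Rheb experiment (-0.85 to -0.72). It ended with all 20 arrays in 1 fit. The sister gene Abcb1b changed by -0.53 in Rheb KO and 1.59 in Rag KO. Near-identical copies such as these can share probes, and the values are given as the probe sets report them.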

How the data were processed

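Per the labels' protocols, total RNA of sorted cells was amplified and biotin-labelled for arrays. The deposited log2 signals were made by the authors with RMA in Affymetrix Expression Console 1.1, per the submitters' processing notes; a joint normalization of both experiments is neither stated nor denied. The table held 28846 probe sets. Of these, 19572 carried 1 gene symbol, and the brightest probe set represented each of 55 genes with several, which left 19505 genes, all tested without rescaling.

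The 12 arrays of the Rheb experiment were fitted with group means in limma 3.58.1 (R 4.3.3); contrasts gave the stimulated and unstimulated effects and their difference. The Rag effect, and the difference of the Rheb effect from it, came from 1 fit of 20 arrays. Tests were two-sided with Benjamini-Hochberg adjustment over all genes. Errors are standard errors. Groups follow the titles. Gene lists and members were chosen with earlier results of these data known, so their counts are no independent evidence. Genes were named by rule: a fixed list, the 12 largest non-overlapping rises and falls, called list members with up to 3 uncalled members a list, and the 8 largest differences from Rag. Other genes, among them those of the 17 stable genes outside this rule and the shared genes of the Rheb and Rag effects, were picked after their values were seen. The labels do not say if replicate numbers pair samples, and the main fits used no pairing. Precision is limited by the number of arrays, 3 or 2 a group.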

Additional observations from a re-analysis of the deposited data

Results flagged for a closer look

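For 8 genes, named by size, the stimulated Rheb effect differed from the stimulated Rag effect in 1 limma fit of 20 arrays, so that the difference itself was tested. The Rheb minus Rag difference was -3.30 for Il4, -2.565 for Pdzk1ip1, -2.98 for Abcb1a, -2.90 for Hpgds, -2.87 for Plac8, -2.44 for Cybrd1, -2.34 for Hc and -2.31 for Eps8l1. Of these, Pdzk1ip1 and Abcb1a were called in stimulated Rheb KO, though neither call held with all 20 arrays in 1 fit. Il4, the type 2 cytokine, had 9.38, 9.12 and 8.98 in Rheb KO and 9.69, 9.53 and 9.74 in its WT, while Rag KO had 11.21 and 11.45 and its WT 9.26 and 7.79. Hpgds, the hematopoietic prostaglandin D synthase, had 6.74, 6.81 and 6.39 in Rheb KO and 6.51, 6.59 and 6.56 in its WT, while Rag KO had 10.11 and 9.02 and its WT 6.34 and 6.79. Its Rheb KO and WT values here all lay below the negative-control medians, so a Rheb change could not be measured. The 2 experiments differ in arrays per group and in their WT arrays, and what each contributes to these differences cannot be told apart.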

How the results depend on the processing

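The 106 calls became 96 after a second quantile normalization, 135 without the dimmest 40% of genes and 106 with the mean of a gene's probe sets. They became 214 with a trended and robust variance prior (103 of the 106 among them), 59 with only the groups compared (49), 13 with all 20 arrays in 1 fit (13) and 25 to 44 without 1 array. With the replicate number as a block 52 were called (50 of the 106). Deviations of same-numbered KO and WT arrays correlated at -0.0031, 0.0213 and 0.0439. With so few arrays these values cannot decide if the numbers pair samples, and the labels do not say. The interaction count of 0 became 7 with the trended prior, 1 without dim genes and 1 with all 20 arrays, and stayed 0 without 1 array. The 37 differences from Rag became 64 after quantile normalization and 12 to 130 without 1 array: 12 without Rag experiment WT array 2, 15 without Rag KO array 1 and 130 without Rag experiment WT array 1. The Rheb change was -0.93 but not called with all 20 arrays, and -1.0017 to -0.83, not called, without 1 array. Of 46 named called genes, 0 reversed, 11 stayed called without any 1 array and 7 under every setting that tested them. Of these 7, Fam110c, Il3 and Ermn were removed with the dimmest 40% of genes and so were not tested in that setting. Reversals concerned uncalled genes: Il2 was -0.0138 after quantile normalization, and without 1 array the ranges crossed 0 for Il2 (-0.0297 to 0.0628), Slc7a5 (-0.069 to 0.1606), Prdm1 (-0.3447 to 0.0507), Hk2 (-0.1802 to 0.1819), Rictor (-0.0206 to 0.3376) and Cybrd1 (-0.0158 to 0.2848). Of 572 list medians under alternatives, 9 moved beyond the spread with all arrays and 40 with 1 array omitted. The cause of these shifts was not tested. Genes below the negative-control median carry little signal over background.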
